A study of Mus musculus with 6 samples.

Results

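The lysyl oxidase family has 5 genes in the mouse, Lox, Loxl1, Loxl2, Loxl3 and Loxl4, and all 5 were found by symbol among the 24348 genes of the count table. Their RNA was measured in fibroblasts sorted by flow cytometry from collagenase-digested synovium, the lining tissue of the joint, of adult wild-type C57BL/6 mice. The IC group (3 libraries) came from mice given immune complexes through the tail vein, which were ovalbumin bound by rabbit antibodies against it, and the vehicle group (3 libraries) came from mice that received the control injection. No transgene, deletion or other agent was named for either group. The interval between injection and dissection, the markers used for the sort and the number of mice behind each library are not given in the sources used here for these samples. The family was chosen by the IC against vehicle result of Lox, with its fold change and adjusted p known, so the comparisons of the 5 genes between IC and vehicle below are descriptions and none of them is an independent test.

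Lysyl oxidases are secreted, copper-dependent amine oxidases. They oxidise the side chain of lysine residues in collagens and elastin to aldehydes, which then condense into the covalent cross-links that make fibrils insoluble and stiff. Lox and Loxl1 are made as proenzymes whose propeptides are cut off outside the cell, whereas Loxl2, Loxl3 and Loxl4 carry scavenger receptor cysteine-rich domains in place of a propeptide. Fibroblasts are among their main sources in connective tissue, and their best known role is the maturation of the collagen and elastic fibre network.

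All 5 genes were well covered, with raw counts between 1037 (Loxl4 in vehicle replicate 3) and 25750 (Lox in IC replicate 3). Counting error alone was at most 3.11% of any of these values, so the spread between libraries, with coefficients of variation of 5.92% to 21.8% within a group, set the precision. Total counts per library were 40114331 to 56714304. All 5 genes passed the filter of at least 10 counts in at least 3 libraries, as did 19925 genes in all. The deposited labels call the cells fibroblasts, and the summed counts, scaled to library total as CPM (counts per 1e6 counts), of 10 fibroblast markers were 44573 to 46324 in the IC libraries and 45488 to 55334 in the vehicle libraries. The marker sums of other cells were far lower. They were 487 to 598 CPM in IC and 602 to 637 in vehicle for 8 mural markers, and 204 to 271 and 273 to 324 for 8 endothelial markers, so both stood slightly lower in IC. The 6 macrophage markers in the table summed to 24.0 to 36.2 and 27.4 to 33.0 CPM, and C1qb and Cx3cr1 were at 0 in at least 1 library. Myogenic progenitor markers stood further apart, with an 8-gene sum of 26.1 to 63.3 CPM in IC and 90.4 to 153 CPM in vehicle. Des was counted in both this sum and the mural sum, at 18.3, 12.2 and 5.70 CPM in IC and 37.4, 40.3 and 24.2 CPM in vehicle. The 10 skeletal muscle markers summed to 14.2 to 28.5 CPM in IC and 25.0 to 58.6 CPM in vehicle, which overlapped.

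The members belong to 2 structural groups that their sequences show. Over the 720 residues of their best local alignment, the encoded Loxl3 and Loxl4 proteins were 57.1% identical, and the other pairs among Loxl2, Loxl3 and Loxl4 were 57.5% and 58.1% identical over 710 and 707 residues. Lox and Loxl1 were 57.9% identical over 330 residues. Between the 2 groups the alignment was limited to 198 to 208 residues of the shared catalytic domain, with 49.5% to 54.8% identity. Loxl1 lies on the minus strand at chr9:58287738-58313186 with 7 exons in its main transcript, Loxl2 on the plus strand at chr14:69609068-69695834, Loxl3 on the plus strand at chr6:83034173-83052562 and Loxl4 on the minus strand at chr19:42593982-42612813, each of the last 3 with 14 exons (GRCm38, GENCODE M21).

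The longest stretch of identical protein in all 5 members was 13 residues, or 39 coding bases. It holds the lysine that is known to become part of the lysine tyrosylquinone cofactor, the group that oxidises the substrate. The coding bases of 4 members are shown because they let a reader see how far the RNA differs where the protein does not, and capitals mark the 10 positions at which these 4 sequences differ. In Loxl1 the stretch is in exon 4 of 7 at chr9:58293627-58293665 (minus strand, residues 505 to 517 of 607). It is in exon 11 of 14 in the other 3 genes, at chr14:69689089-69689127 in Loxl2 (plus strand, residues 650 to 662 of 776), chr6:83050177-83050215 in Loxl3 (plus strand, residues 630 to 642 of 754) and chr19:42598717-42598755 in Loxl4 (minus strand, residues 634 to 646 of 757). The sequences are from the GENCODE M21 transcripts.
Loxl1: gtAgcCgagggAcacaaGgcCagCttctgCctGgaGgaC
Loxl2: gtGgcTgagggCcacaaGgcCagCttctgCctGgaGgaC
Loxl3: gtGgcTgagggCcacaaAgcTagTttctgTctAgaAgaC
Loxl4: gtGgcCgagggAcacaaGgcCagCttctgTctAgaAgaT

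Even in this stretch, pairs of the 4 genes differed at 3 positions (Loxl1 and Loxl2) to 9 positions (Loxl1 and Loxl3) of the 39. Across whole transcripts, Lox and Loxl1 were the only pair to share any 31-base word, with 4 such words. The longest identical run was 32 bases between Lox and Loxl1 and at most 28 bases in any other pair.

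Lox, Loxl2 and Loxl3 share exon bases with other annotated genes. Loxl3 shares 535 exon bases with Htra2, a mitochondrial protease gene on the opposite strand, whose counts were 1232 to 1544 and whose fitted log2 difference was 0.10. Loxl2 shares 301 exon bases with the antisense gene Gm27177, and Loxl1 and Loxl4 share none with any annotated gene. Lox, at chr18:52516067-52529867 on the minus strand with 8 exons in its main transcript, shares 30 exon bases with an antisense gene. Whether counting used the strand is not given in the sources used here, so reads from the overlapping bases of Loxl3 and Loxl2 cannot be assigned to 1 gene with certainty.

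Levels can be compared between the members only per length, and were expressed as RPKM, the reads per kilobase of exon per 1e6 assigned reads. Loxl1, the member best known for the upkeep of elastic fibres, was the most abundant in both groups, at 131 ± 9.31 RPKM in IC and 129.6 ± 17.1 in vehicle (SD, n = 3). Lox, the founding member that cross-links fibrillar collagens and elastin, followed with 91.1 ± 8.13 RPKM in IC and 48.3 ± 6.29 in vehicle. Loxl2, which is known for oxidising type IV collagen of basement membranes, had 31.1 ± 3.29 and 37.1 ± 4.81 RPKM.

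Loxl3, known for its part in the development of the palate and spine, had a level of 23.6 ± 1.17 RPKM in IC and 18.5 ± 1.37 in vehicle. Loxl4, which like Loxl2 and Loxl3 carries scavenger receptor domains, was the lowest with 8.99 ± 0.803 RPKM in IC and 5.95 ± 1.14 in vehicle. The order Loxl1, Lox, Loxl2, Loxl3, Loxl4 was therefore the same in the means of both groups. This used the union of exons as the length, 4778 bases for Lox and 5405 for Loxl2. With the longest transcript as the length, vehicle means kept this order at 129.6, 48.7, 37.7, 20.8 and 6.70 RPKM. The main transcript of Loxl2 (3042 bases) is shorter than that of Lox (4468 bases), which would raise Loxl2 relative to Lox. Levels by that length were not computed, so the order of Lox and Loxl2 holds only for the lengths used here. In the vehicle libraries Lox (41.1 to 52.5 RPKM) and Loxl2 (33.2 to 42.5 RPKM) had overlapping ranges, although Lox was above Loxl2 within each of the 3 libraries. No other neighbours had overlapping ranges in vehicle, and none did in IC. Among the 19602 tested genes with an annotated length, Loxl1 stood between the 98.8th and 99.1st percentile of level in every library, Lox between 96.2 and 98.6, and Loxl4 between 60.8 and 78.7.

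**Figure D1:**
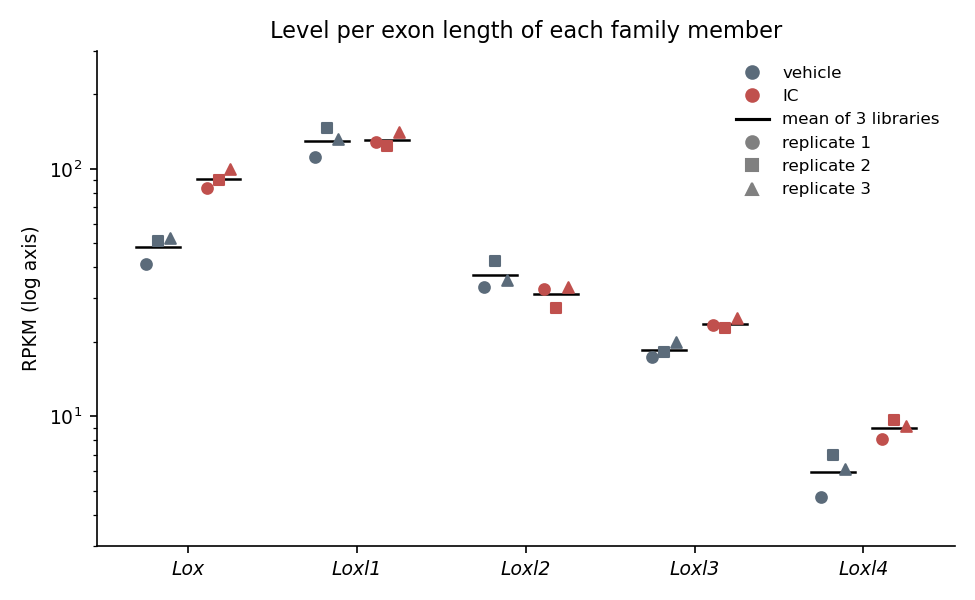
Level of each lysyl oxidase gene in every library, in RPKM (log axis), with IC and vehicle libraries as separate points and the mean of 3 libraries as a line. Loxl1 is highest at 112 to 146 RPKM in vehicle and 123 to 141 in IC, and the ranges of Lox and Loxl2 overlap in vehicle but not in IC.

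Lox RNA was 1.87 times as high in the fibroblasts of IC mice as in those of vehicle mice. Counts normalised by size factors were 19191, 20363 and 23075 in IC replicates 1 to 3 and 9123, 12078 and 12234 in vehicle replicates 1 to 3. The 3 IC libraries were all above the 3 vehicle libraries, and the lowest IC value was 1.57 times the highest vehicle value. Means were 20876 ± 1992 and 11145 ± 1753 (SD, n = 3). The fitted log2 fold change of Lox was 0.91 (SE 0.111, DESeq2 adjusted p = 8.53e-13), and this was the result by which the family was chosen. The adjusted p of edgeR's quasi-likelihood test was 0.0167. Leaving out 1 library at a time gave log2 fold changes of 0.78 to 0.98, so no single library decided the size of this difference.

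Loxl4 and Loxl3 were also higher in IC, by less. Normalised counts of Loxl4 were 1642, 1939 and 1865 in the IC libraries and 926, 1448 and 1261 in the vehicle libraries, with the lowest IC value 1.13 times the highest vehicle value. The groups did not overlap, and vehicle replicate 1 was the lowest library. Its log2 fold change was 0.58 (SE 0.154), or 1.5-fold on the linear scale, with a DESeq2 adjusted p of 0.0104. The DESeq2 adjusted p of Loxl4 rose to 0.160 without IC replicate 2, to 0.102 without IC replicate 3 and to 0.0891 without vehicle replicate 3, and edgeR gave 0.154 with all libraries.

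Normalised counts of Loxl3 were 5150.4, 4949.9 and 5557 in IC and 3712, 4140.1 and 4498 in vehicle. Here too every IC library lay above every vehicle library, by 1.1 times at the nearest. The log2 fold change of Loxl3 was 0.34 (SE 0.0968), or 1.27-fold, with a DESeq2 adjusted p of 0.0218. It passed the threshold of 0.05 in only 2 of the 6 fits that left out a library, those without IC replicate 2 (DESeq2 adjusted p = 0.0443) and without vehicle replicate 3 (0.0114), and the highest adjusted p among the 6 was 0.157. With edgeR the adjusted p of Loxl3 was 0.168.

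Loxl1 and Loxl2 gave no such separation. Normalised counts of Loxl1 were 20377, 19291 and 22574 in IC and 17113, 23677 and 21155 in vehicle. The IC libraries lay inside the range of the vehicle libraries, and the means were 20747 ± 1672.5 and 20648 ± 3311. The log2 fold change was 0.0070 (SE 0.108, DESeq2 adjusted p = 0.997), and its sign depended on which library was left out, with values from −0.11 to 0.12.

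Normalised counts of Loxl2 were 8489, 7000.5 and 8699 in IC and 8354, 11314 and 9369.7 in vehicle. Vehicle replicate 1 fell among the IC libraries, so the groups overlapped. The fitted log2 difference of Loxl2 was −0.26 (SE 0.115, DESeq2 adjusted p = 0.292), and the value was between −0.36 and −0.13 when 1 library was left out.

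DESeq2 thus called 3 of the 5 members, all 3 with higher counts in IC, and the same 3 had groups that did not overlap. Over all tested genes 2.10% were called, 1.03% with higher and 1.07% with lower counts in IC, and 15.8% had groups that did not overlap. Nothing is read from the members' count against these shares, since the family was chosen from this contrast. With edgeR, which called 0.186% of the tested genes, Lox was the one member called. The median log2 difference over all tested genes was −0.0019. In bulk libraries more RNA per cell and more cells that make the RNA cannot be told apart. Des, lower in IC, counts in both the myogenic progenitor and the mural sum, so these sums are not independent. The lower sums of myogenic progenitor, mural and endothelial markers in IC moved with these results. So did single fibroblast markers, of which DESeq2 called 3 of 10. Prg4, the lubricin gene that marks lining fibroblasts, was named after its values had been seen and had 361, 465 and 473 CPM in IC and 178, 281 and 213 CPM in vehicle. Its log2 difference was 0.94 (SE 0.248, DESeq2 adjusted p = 0.0103), and leaving out IC replicate 2 (0.149), leaving out IC replicate 3 (0.153) or leaving out vehicle replicate 3 (0.146) lost the call, as did edgeR (0.0541). The other 2 called fibroblast markers, Lum and Col3a1, fell. Cd55, another lining fibroblast marker, was also picked after its values had been seen. It had 276, 244 and 277 CPM in IC and 251, 250.4 and 249.7 CPM in vehicle, so the groups overlapped, and it was not called. With a skeletal muscle marker score as a second term in DESeq2, the log2 fold change was 0.75 for Lox (adjusted p = 0.0492), 0.61 for Loxl4 and 0.20 for Loxl3 (adjusted p = 1 for both). Prg4 lost its call in that fit too (log2 difference 1.01, adjusted p = 1). The 10 skeletal muscle markers had a median log2 difference of −1.82, so the score moved partly with treatment. With 6 libraries that fit cannot tell muscle cells from treatment, and the part of other cells in these differences was not tested.

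**Figure D2:**
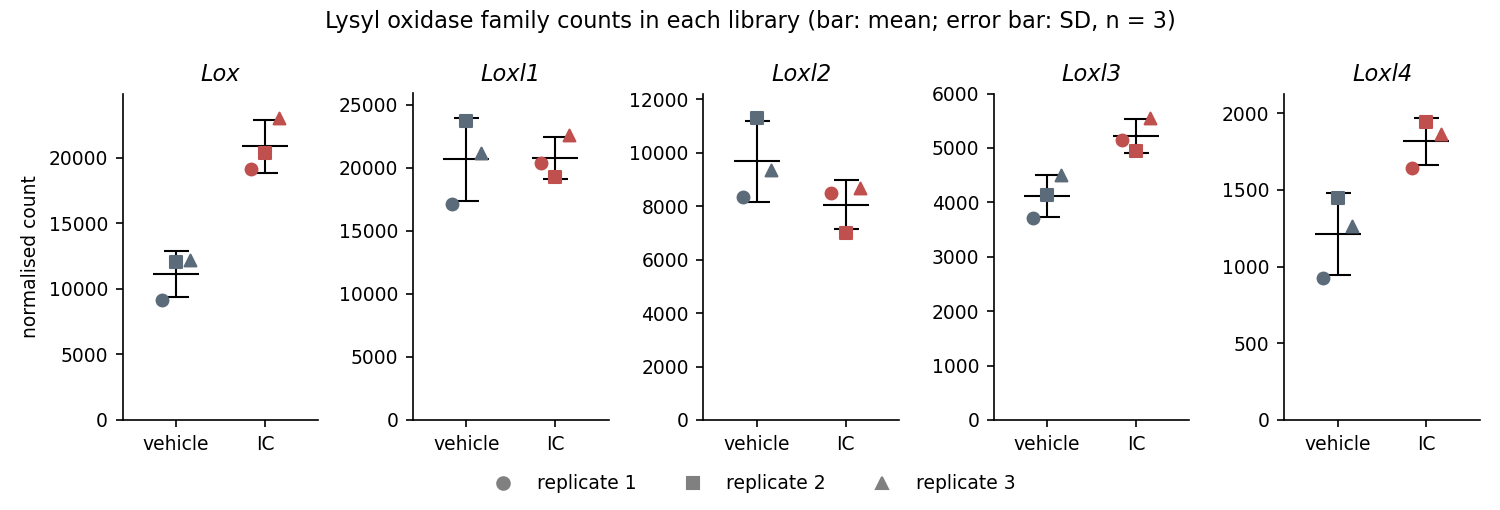
Normalised counts of the 5 lysyl oxidase genes in each library (points, with the symbol giving the replicate number), with the group mean (bar) and SD (error bar, n = 3), on linear axes that start at 0. The IC points lie above all vehicle points for Lox, Loxl3 and Loxl4, and the groups overlap for Loxl1 and Loxl2.

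The members did not shift together, so the make-up of the family's RNA differed between the groups. Summed over the 5 genes, the level was 273 to 309 RPKM in IC (mean 286 ± 19.7) and 208 to 265 RPKM in vehicle (239.5 ± 28.9, SD, n = 3). Lox made up 30.3% to 32.9% of this sum in the IC libraries and 19.4% to 21.4% in the vehicle libraries. Loxl1 made up 45.2% to 46.6% in IC and 53.5% to 55.0% in vehicle, although its own level overlapped between the groups. The share of Loxl2 was 10.01% to 11.8% in IC and 14.5% to 16.05% in vehicle.

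The 2 least abundant members contributed little to this shift. Loxl4 held 2.94% to 3.56% of the family's RPKM in IC and 2.27% to 2.63% in vehicle. Loxl3 held 8.08% to 8.43% in IC and 6.89% to 8.34% in vehicle, which overlapped. The shares of 1 library sum to the whole, so a higher share of Lox lowers the summed share of the others by construction.

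**Figure D3:**
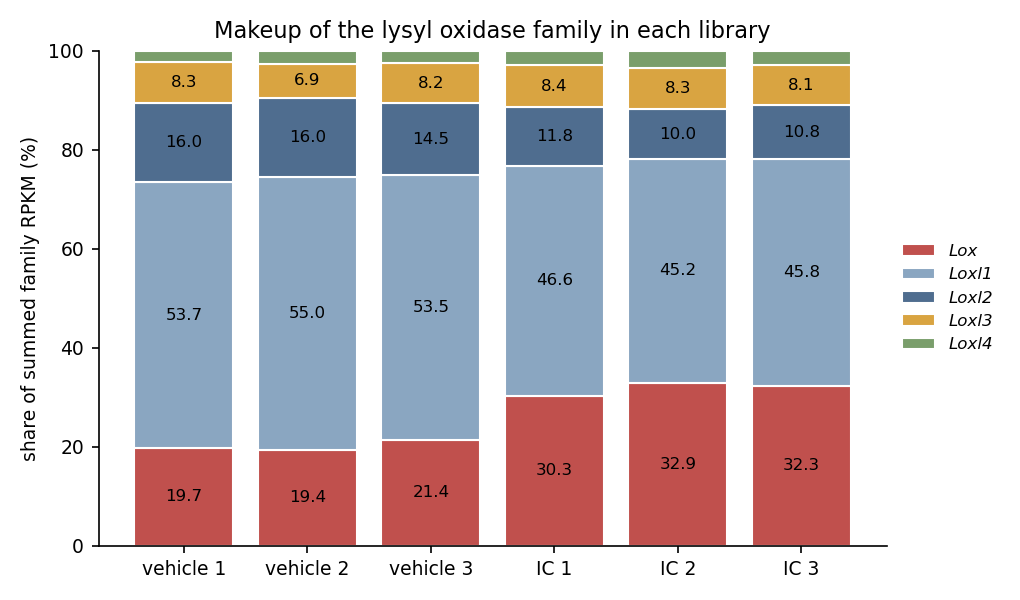
Share of each lysyl oxidase gene in the summed RPKM of the family (percent, y axis) in each of the 6 libraries. Lox takes 30.3% to 32.9% in the IC libraries and 19.4% to 21.4% in the vehicle libraries, and Loxl1 is the largest share in all 6.

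Ratios taken within a library do not depend on its depth or size factor. The ratio of Lox to Loxl1 in RPKM was 0.650, 0.728 and 0.705 in IC replicates 1 to 3 and 0.368, 0.352 and 0.399 in vehicle replicates 1 to 3. Every IC library had a ratio well above every vehicle library, and the mean log2 ratio was −0.53 ± 0.0848 in IC against −1.42 ± 0.0918 in vehicle (SD, n = 3). The ratio of Lox to Loxl2 was 2.56, 3.29 and 3.0 in IC and 1.24, 1.21 and 1.48 in vehicle, the pair with the widest gap, at a log2 difference of 1.17.

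Lox also stood higher in IC relative to the members that differed in the same direction. The Lox to Loxl3 ratio was 3.59 to 4.0 in IC and 2.37 to 2.81 in vehicle, and the Lox to Loxl4 ratio was 9.26 to 10.9 in IC and 7.35 to 8.69 in vehicle. Of the 10 pairs of members, Loxl3 with Loxl4 was the one pair whose ratio overlapped between the groups (2.34 to 2.87 in IC and 2.62 to 3.67 in vehicle). These ratios come from the contrast by which the family was chosen and carry no test.

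Across the 6 libraries, the members fell into those that followed Lox and those that did not. On the log2 scale, the Pearson correlation with Lox was 0.968 for Loxl3 and 0.942 for Loxl4, 0.344 for Loxl1 and −0.43 for Loxl2. Loxl1 and Loxl2 had a correlation of 0.665 with each other. The 6 points are 2 groups of 3 libraries, so these values mostly restate which genes differed between IC and vehicle, and 271 of the 13434 genes with a mean normalised count of at least 100 had a correlation with Lox above 0.9. Loxl3 took place 49 and Loxl4 place 115 in that ranking.

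The 6 genes whose pattern was most like Lox were Fpgs, which adds glutamates to folates (r = 0.994), Aldh1l2, a mitochondrial enzyme of folate metabolism (0.992), Copg1, a coat protein of transport vesicles (0.992), Trim3 (0.989), Rpn1, a subunit of the oligosaccharyltransferase of the endoplasmic reticulum (0.989) and Tmbim4 (0.988). Their Spearman correlations with Lox were 0.943 to 1. Aldh1l2 was the gene among them with a log2 difference close to that of Lox, at 0.89 (SE 0.167, DESeq2 adjusted p = 3.30e-05), and Rpn1 was called at 0.43 (SE 0.0972, DESeq2 adjusted p = 0.000963). The calls of both held without any 1 library but were lost with edgeR (adjusted p = 0.0537 for Aldh1l2 and 0.0856 for Rpn1) and with a skeletal muscle score in DESeq2 (0.930 and 1). The other 4 had log2 differences of 0.19 to 0.28 and were not called. At most 2 of these 6 names stayed among the 6 most like Lox when 1 library was left out, so the ranking does not single out particular genes.

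The genes that act with lysyl oxidases were described through 8 lists of their substrates, partners, copper suppliers and inducers. Of 123 tested genes in the lists, family members left out, DESeq2 called 13 (10.6%), 5 with higher and 8 with lower counts in IC, where 2.10% of all tested genes were called. The median log2 difference over the 123 genes was −0.012, and 30 of them (24.4%) had groups that did not overlap, beside 15.8% of all tested genes. The lists were written with earlier results of these data known, so nothing is read from these shares. The 2.10% also counts the 3870 tested genes without an adjusted p as not called. EdgeR called 2 of the 123, Ltbp2 (adjusted p = 0.0167) and P4ha3 (0.0206).

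Collagens become lysyl oxidase substrates only after their chains are modified and folded in the endoplasmic reticulum. DESeq2 called 3 of the 20 tested genes of collagen modification and folding (15%), 2 higher and 1 lower in IC. Their list had a median log2 difference of 0.0099, and 2.10% of all tested genes were called. P4ha3, a prolyl 4-hydroxylase subunit, rose from 347 ± 17.1 normalised counts in vehicle to 718 ± 84.9 in IC, a log2 fold change of 1.05 (SE 0.170, DESeq2 adjusted p = 3.84e-07). This value was above that of Lox, a gap that was not tested, and the call held without any 1 library. P3h2, a prolyl 3-hydroxylase, rose by 0.59 (SE 0.180, DESeq2 adjusted p = 0.0425), a call that was kept only without vehicle replicate 2 and otherwise lost on leaving out a library (0.0623 to 0.373). Colgalt2, which adds galactose to hydroxylysine, fell by 0.54 on the log2 scale (SE 0.128, DESeq2 adjusted p = 0.00263; 0.0519 without IC replicate 2). The lysyl hydroxylases, picked for their role after their values had been seen, had log2 differences of 0.0073 for Plod1, −0.022 for Plod2 and 0.15 for Plod3, and none was called.

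Of the 15 tested genes for cleavage of propeptides and for docking of the enzymes on the matrix, DESeq2 called 3 (20%). All 3 were lower in IC, and the list median was −0.016. Over all tested genes 2.10% were called in either direction and 1.07% with lower counts in IC. Adamts14, a proteinase that removes the amino-terminal propeptide of procollagen, went from 3449.7 ± 109 normalised counts in vehicle to 2491 ± 278 in IC, a log2 fold change of −0.47 (SE 0.104, DESeq2 adjusted p = 0.000924), and its call held without any 1 library. Lum, a small proteoglycan on collagen fibrils, fell by 0.36 (SE 0.0859, DESeq2 adjusted p = 0.00250; 0.0853 without vehicle replicate 3). Fn1, the fibronectin on which Lox precursors are processed, fell by 0.34 (SE 0.106, DESeq2 adjusted p = 0.0494), and all fits that left out a library lost the call (0.0963 to 0.469) except that without vehicle replicate 1. Bmp1, the main proteinase that activates the Lox proenzyme, was picked for this role after its value had been seen. It had 31140 ± 533 normalised counts in IC and 31284 ± 1347 in vehicle, and was not called.

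Among the substrates, the 13 tested collagen genes had a median log2 difference of −0.099. Col3a1 alone was called (7.69%, beside 2.10% of all tested genes). Col3a1, the chain of type III collagen, fell by 0.38 (SE 0.0961, DESeq2 adjusted p = 0.00679), a call kept when IC replicate 3 or vehicle replicate 1 was left out and lost in the other 4 fits of this kind (0.0708 to 0.192). Of 18 tested genes of elastin and the elastic fibre, 1 was called higher and 1 lower in IC (11.1% called). Ltbp2, a latent TGF-beta binding protein found on elastic fibres, rose from 693 ± 51.4 to 1360 ± 174 normalised counts, a log2 fold change of 0.97 (SE 0.141, DESeq2 adjusted p = 6.28e-09), close to that of Lox, and its call held without any 1 library. Mfap2, a microfibril protein, fell by 0.37 (SE 0.112, DESeq2 adjusted p = 0.0446), a call kept only in the fits without IC replicate 3 or vehicle replicate 1 (0.112 to 0.226 in the other 4 fits). Elastin itself, picked after its value had been seen, had 28577 ± 2003 normalised counts for Eln in IC and 25837 ± 1668 in vehicle, and the groups overlapped.

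The copper that lysyl oxidases carry is loaded in the secretory pathway. Of 16 tested copper handling genes 1 was called (6.25%, beside 2.10% of all tested genes), and their median log2 difference was −0.084. Steap3, a metalloreductase best known for iron, fell by 0.36 (SE 0.10, DESeq2 adjusted p = 0.0176), which again held only when IC replicate 3 or vehicle replicate 1 was left out (0.134 to 0.319 in the other 4 fits). Atp7a, the pump that delivers copper to secreted enzymes, was picked after its value had been seen and had a log2 difference of −0.045, with overlapping groups. None of the 4 tested amine oxidases outside the family was called by DESeq2 or by edgeR, and 1 of them had an unadjusted DESeq2 p under 0.05. The 2 with the smallest unadjusted p were Aoc3, the vascular adhesion protein, with a log2 difference of −0.35 (SE 0.135, DESeq2 adjusted p = 0.179; 0.000468 without vehicle replicate 1), and Aoc2, with 0.22 (SE 0.249, DESeq2 adjusted p = 0.876).

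TGF-beta and low oxygen are known inducers of Lox transcription, and both lists were examined. Of 20 tested genes of the TGF-beta pathway and its targets, 2 rose and 1 fell (15% called, beside 2.10% of all tested genes), with a median log2 difference of 0.030. The risers were Ltbp2, which is also in the elastic fibre list, and Smad7, the feedback inhibitor of the pathway, with 0.36 (SE 0.10, DESeq2 adjusted p = 0.0197; 0.145, 0.173 and 0.164 without IC replicate 2, IC replicate 3 and vehicle replicate 2). Tgfb2, a TGF-beta ligand, fell from 8151 ± 542 normalised counts in vehicle to 5822 ± 589 in IC, a log2 fold change of −0.49 (SE 0.0952, DESeq2 adjusted p = 8.51e-05), and its call held without any 1 library. Of 23 tested hypoxia response genes 1 was called (4.35%), and the list median was 0.028. Hk2, the hexokinase at the start of glycolysis, rose by 0.50 (SE 0.113, DESeq2 adjusted p = 0.00107; 0.0726 without vehicle replicate 3).

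The lower myogenic progenitor marker sums in IC stand beside these calls too, while the skeletal muscle sums overlapped. With the skeletal muscle score as a second term, DESeq2 called only 25 of all tested genes, in a fit that cannot tell the score from treatment. Ltbp2 kept its call (log2 fold change 1.1, DESeq2 adjusted p = 0.00469) and the other 12 of the 13 lost theirs. P4ha3 then had a log2 fold change of 0.94 (DESeq2 adjusted p = 0.226), Tgfb2 −0.51 (0.421) and Adamts14 −0.57 (0.270). Estimates moved both ways, and they shrank from 0.36 to 0.13 for Smad7, −0.54 to −0.41 for Colgalt2 and −0.34 to −0.25 for Fn1.

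**Figure D4:**
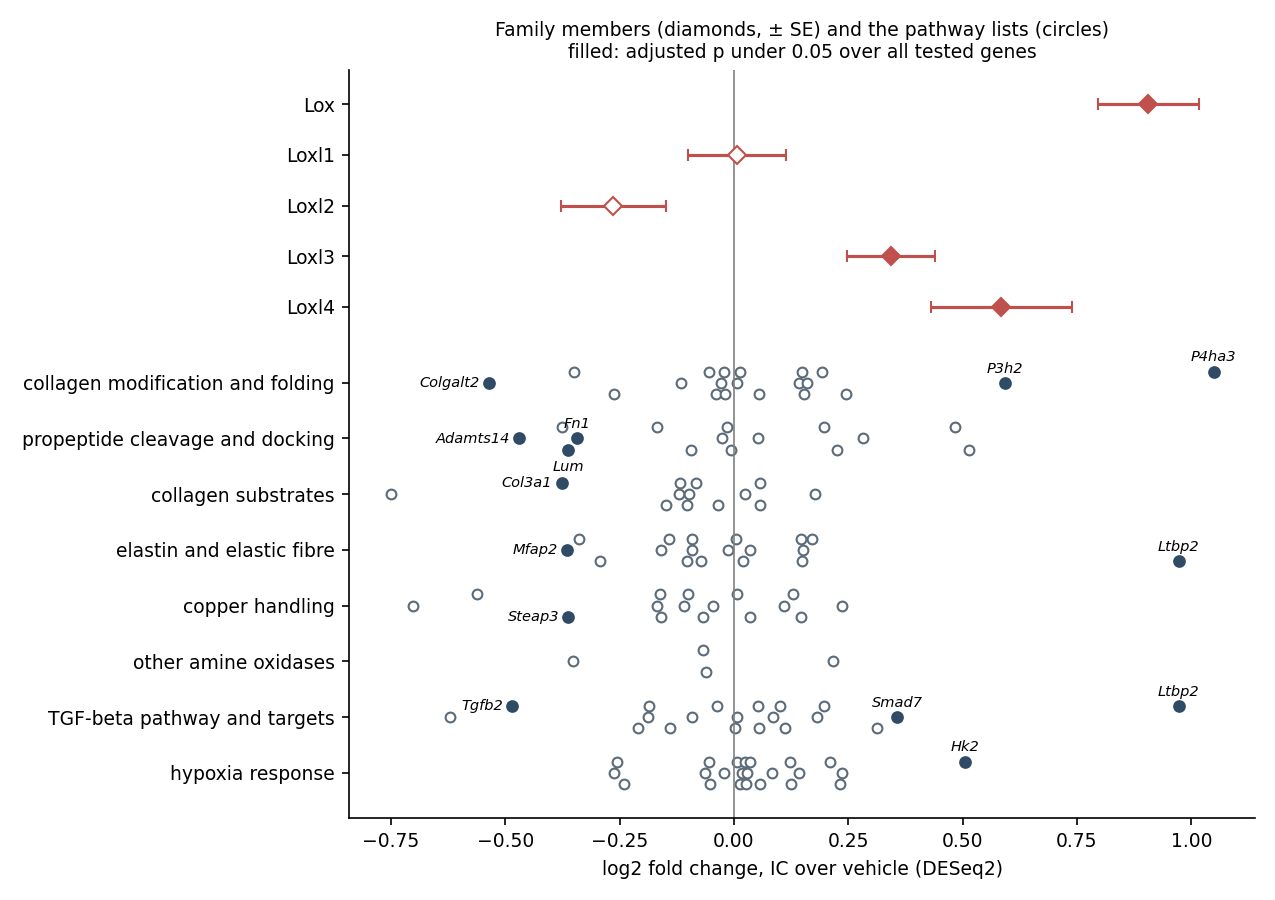
DESeq2 log2 fold change of IC over vehicle for the 5 lysyl oxidase genes (diamonds, error bar SE) and for the genes of the 8 pathway lists (circles, jittered vertically within a list), with filled symbols for an adjusted p under 0.05 over all tested genes. Lox at 0.91 lies beside P4ha3 at 1.05 and Ltbp2 at 0.97, while the medians of the 8 lists lie between −0.099 and 0.030.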

How the data were processed

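Total RNA of sorted synovial fibroblasts was sequenced. The deposited files hold unnormalised read counts for each gene. Per the submitters' processing notes the authors used Trim Galore, FastQC, HISAT2 and featureCounts with mm10. Versions, annotation and strand setting are not given in the sources used here. The labels name an Illumina kit with Ribo-Zero Plus depletion and the study's methods a SMARTer Pico kit. Those methods name sva without settings, so 1 surrogate variable was tried as an alternative only.

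A count of 10 or more in 3 or more libraries was required (19925 of 24348 genes). Counts were fitted with DESeq2 (1.42.0, Wald test, treatment as the only term), and genes were called where the Benjamini-Hochberg adjusted p over all tested genes was under 0.05. For 3870 genes DESeq2 returned none. Alternatives used edgeR (4.0.16, quasi-likelihood), limma-voom (3.58.1), sva (3.50.0), other scaling and filters, a replicate block, a muscle marker score (mean log2 normalised count of 10 markers, pseudocount 1) and leaving out each library. RPKM used the union of exons of GENCODE M21.

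The members and lists were chosen with earlier results of these data known. Named genes were the 5 members, up to 4 called genes of each list by smallest adjusted p (where none was called, the 2 with the smallest unadjusted p) and the 6 genes most correlated with Lox on log2(normalised count + 1). Others are said to be picked after their values were seen. Libraries of a group differed by more than sampling noise (chi-square per degree of freedom 15.2 to 68.4 over pairs). The labels do not say whether each library is a separate mouse, so p-values measure only the spread between these samples. In simulated counts with 200 genes changed, DESeq2 recovered 84% at 2-fold (19088 genes, 16% of calls false) and 58% at 1.5-fold (19085 genes, 18.3% false). EdgeR recovered 80% (9.6% false) and 42% (11.6% false). The changed genes were drawn from those with a mean normalised count of at least 100, and the simulated spread was that fitted by DESeq2. These rates therefore do not carry over to genes with lower counts. In the real libraries edgeR called 37 genes and DESeq2 419, a wider gap than between the recovered shares above. The rates therefore cannot be applied to the calls made here.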

Additional observations from a re-analysis of the deposited data

How the results depend on the processing

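Lox kept its direction and call under all 17 alternatives, with log2 fold changes of 0.75 to 0.97 in the 11 that used all libraries and 0.78 to 0.98 when 1 library was left out. The count of called genes was 419 with DESeq2 but 37 with edgeR, 62 with limma-voom, 22 with edgeR and the replicate block (chosen after seeing the data), 25 with the skeletal muscle score, and 282 to 671 on leaving out a library (671 without vehicle replicate 1). Under the same alternatives the 13 pathway list genes became 2, 3, 1 and 1, and 6 to 28 on leaving out a library (7 without IC replicate 2, 28 without vehicle replicate 1, 6 without vehicle replicate 3). DESeq2 with the replicate block called 320 genes, of which 272 were among the 419, and 11 list genes, and kept Lox, Loxl3 and Loxl4. Same-numbered libraries deviated with correlations of −0.092, −0.16 and 0.025. With 3 libraries a group, these values cannot show whether the replicate numbers pair the samples. Loxl1 changed sign with the muscle score (−0.0066) and on leaving out a library (−0.11 to 0.12). The limma-voom adjusted p was 0.127 for Loxl3 and 0.109 for Loxl4. The causes of these changes were not tested. With 3 libraries a group, depth did not limit the members, and the spread between libraries did.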
